A study of Mus musculus with 18 samples.

Results

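The livers of 6 male CD-1 mice that received the high dose of bisphenol A fell into 2 sets, mice 2, 4 and 6 with high Pnpla3 and Thrsp transcripts and mice 1, 3 and 5 with low ones, and the account below describes which other genes differ between these sets. The members are these 6 arrays of the 18 in the series. The 2 sets were chosen by their measured levels of Pnpla3 and Thrsp, so every value from the division of the high-dose mice is a description and carries no test. The lowest of mice 2, 4 and 6 had a Pnpla3 level of 3.87 and the highest of mice 1, 3 and 5 one of 0.72, on the log2 scale explained next. The division follows the even and odd mouse numbers of the labels, which give no reason why numbers should matter. The same even and odd numbers in the control and low-dose groups, which played no part in the choice, served as the check.

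Bisphenol A is a plastics monomer with weak estrogen activity. Each of the 3 groups held 6 mice that were 9 weeks old at the end of a 28-day exposure through a powdered diet rich in starch (49%) and sucrose (24.4%). Controls ate this diet without bisphenol A, the low-dose mice took in on average 50 µg per kg of body weight each day and the high-dose mice 5000 µg. The intake was worked out from an assumed food consumption rather than measured in each animal. All mice had free access to food and water and a 12 h light and dark cycle. The hour of killing, the order of killing, the litter, the cage and the time since the last meal are not given in the sources used here. A frozen fragment of the large liver lobe of each mouse was hybridised to 1 Agilent 1-colour array, and a level is the log2 spot intensity minus the 75th percentile of its array. Levels are comparable between mice for a gene, not between genes.

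The liver makes fatty acids from dietary sugar after meals. Insulin and glucose act through the transcription factors SREBP-1c (Srebf1) and ChREBP (Mlxipl), which switch on the enzymes of lipogenesis together with Thrsp and Pnpla3, and these transcripts are among the most strongly fed-responsive ones of hepatocytes. In the fasted state fatty acids from adipose tissue activate the nuclear receptor PPARα, whose targets carry fatty acids into oxidation and ketone bodies. The same organ keeps a circadian clock, in which CLOCK and BMAL1 (Arntl) drive Per, Cry and Nr1d1, and feeding time shifts that clock.

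The 18 arrays correlated pairwise at 0.9522 to 0.9862. The 75th percentile of intensity was 265 to 308 in high-dose mice 1, 3 and 5 and 274 to 354 in mice 2, 4 and 6, and the share of probes well above background was 59.2% to 60% and 59.9% to 63.2%. Mice 1, 3 and 5 lay on slides 2, 3 and 4 and mice 2, 4 and 6 on slides 5, 1 and 4. Mice 5 and 6 alone shared a slide, so the difference of mouse 6 minus mouse 5 is the only comparison within a slide. On their slides mice 1, 3 and 5 lay at positions 3, 2 and 3 and mice 2, 4 and 6 at positions 2, 4 and 4. Mouse 6 minus mouse 5 thus also compares position 4 with position 3, and the part of position was not tested. All arrays were scanned on 1 day. Mouse 2 stood apart from the other high-dose mice in neutrophil and acute phase transcripts, as described with the cell types, and values without it are given where they matter. Hepatocyte transcripts were high in every high-dose mouse, Alb (albumin) at 7.63 to 7.97 with saturated spots on all 18 arrays and Cps1, the first enzyme of the urea cycle, at 6.05 to 6.74.

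Pnpla3, the lipase and acyltransferase of lipid droplets whose transcript follows insulin and SREBP-1c, marks the division by construction. Its level was 0.72, 0.16 and 0.00 in mice 1, 3 and 5 and 3.87, 4.14 and 4.45 in mice 2, 4 and 6, a difference of 3.86 or 14.5-fold. Mice 1 and 3 lay within the control range of 0.01 to 1.72 and mouse 5, at 0.00, just below its lower end. The high set lay within the low-dose range of 3.44 to 5.96. Thrsp, the Spot 14 protein that supports lipogenesis, was 4.25, 4.50 and 4.38 in mice 1, 3 and 5 and 6.03, 6.59 and 6.52 in mice 2, 4 and 6. Its difference of 2.00 corresponds to 4-fold. Controls held Thrsp levels of 3.27 to 4.86, which enclose the low set, and low-dose mice levels of 6.59 to 7.41, so mice 2 and 6 stayed below the low-dose range. These values chose the sets and support nothing by themselves.

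Per2, a repressor arm of the circadian clock, was -2.25, -1.83 and -2.39 in mice 1, 3 and 5 and 0.02, -0.47 and -0.86 in mice 2, 4 and 6, a difference of 1.72 (3.28-fold). The sets did not overlap, the low set lay within the control range (-2.58 to -1.48) and the high set within the low-dose range (-1.14 to 0.69). A second Per2 probe gave -0.41 with overlapping sets, so this difference rests on the brighter probe. Nr1d1, the clock repressor REV-ERBα, ran the other way, at 0.91, 0.59 and 0.52 in mice 1, 3 and 5 and -0.92, -0.17 and -0.66 in mice 2, 4 and 6. The Nr1d1 difference was -1.25, or 2.39-fold lower in mice 2, 4 and 6, and here mice 1, 3 and 5 lay above all controls (-1.19 to 0.51). Other Nr1d1 probes gave -0.63 with separate sets and -0.61 with overlapping sets. On the deposited coordinates (build mm8) the probes read here lie at chr15:84017159-84017218 for Pnpla3, chr7:97292244-97292303 for Thrsp, chr1:93246875-93246934 for Per2 and chr11:98585302-98585804 for Nr1d1, and the exon each one hits was not analysed here.

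**Figure D1:**
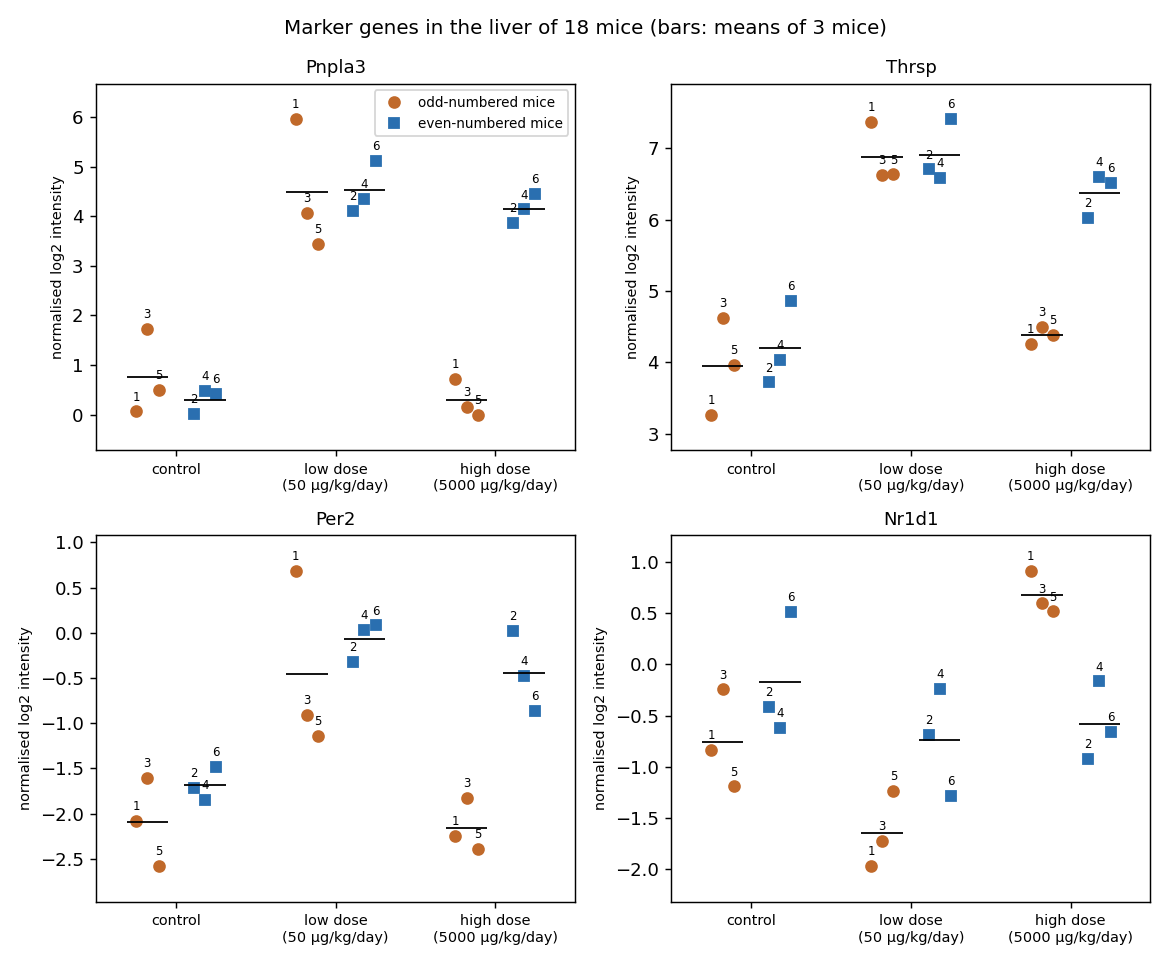
Normalised log2 intensity of Pnpla3, Thrsp, Per2 and Nr1d1 in each of 18 mice, by group on the x axis, with odd-numbered mice as circles, even-numbered mice as squares, the mouse number above each point and a bar at the mean of 3 mice. In the high-dose group the even and odd mice do not overlap for any of the 4 genes, with Pnpla3 at 3.87 to 4.45 against 0.00 to 0.72, whereas the even and odd mice of the control and low-dose groups overlap for Pnpla3 and Thrsp.

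The promoters of the 2 choosing genes and of the clock genes Per1 and Cry1, which also differed between the sets, are printed so that the reading of the clock and lipid genes can be set beside their sequence. Each is the 250 bases before a RefSeq transcription start (build GRCm38.p6, 5′ to 3′ on the strand of the gene). Capitals mark matches on either strand to 5 motifs, the E-box CACGTG bound by clock and lipogenic basic helix-loop-helix factors, the sterol element TCACNCCAC, the D-box TTANGTAA, the related element TTATGCAA, and the nuclear receptor half-site AGGTCA.
Pnpla3 (chr15:84167566-84167815, + strand): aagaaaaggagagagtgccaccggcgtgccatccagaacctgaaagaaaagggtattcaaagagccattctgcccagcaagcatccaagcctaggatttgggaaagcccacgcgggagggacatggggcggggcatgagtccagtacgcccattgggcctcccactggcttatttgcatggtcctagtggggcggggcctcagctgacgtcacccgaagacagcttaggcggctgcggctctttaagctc
Thrsp (chr7:97417551-97417800, - strand): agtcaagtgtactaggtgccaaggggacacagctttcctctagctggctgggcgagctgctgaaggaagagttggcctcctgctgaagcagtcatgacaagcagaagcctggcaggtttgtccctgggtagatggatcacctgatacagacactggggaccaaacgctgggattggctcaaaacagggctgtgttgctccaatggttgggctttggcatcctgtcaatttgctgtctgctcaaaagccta
Per1 (chr11:69098699-69098948, + strand): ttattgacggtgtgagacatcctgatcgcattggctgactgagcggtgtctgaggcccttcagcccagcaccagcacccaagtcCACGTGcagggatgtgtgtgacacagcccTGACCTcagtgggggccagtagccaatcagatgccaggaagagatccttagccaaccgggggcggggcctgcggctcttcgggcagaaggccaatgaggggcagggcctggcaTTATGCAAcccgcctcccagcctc
Cry1 (chr10:85185055-85185304, - strand): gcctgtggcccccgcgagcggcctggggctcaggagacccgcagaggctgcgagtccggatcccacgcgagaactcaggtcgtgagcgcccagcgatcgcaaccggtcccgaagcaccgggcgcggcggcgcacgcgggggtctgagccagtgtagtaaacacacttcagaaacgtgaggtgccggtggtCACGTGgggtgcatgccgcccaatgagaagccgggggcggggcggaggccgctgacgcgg
The Pnpla3 and Thrsp windows held none of the 5 motifs, and neither did the Nr1d1 window (chr11:98775378-98775627, - strand). The Per1 window printed here held CACGTG, TTATGCAA and AGGTCA once each, and the Cry1 window held CACGTG once. The window of another Per1 start (chr11:69099902-69100151, + strand), not printed, held none of the 5 motifs. Of all 32851 promoters in the table, 6.02% held CACGTG, 1.05% TCACNCCAC, 2.06% TTANGTAA, 0.694% TTATGCAA and 14% AGGTCA within these 250 bases. Among the 399 genes described next, 12 of 110 promoters (10.9%) of 86 higher genes and 5.65% of 124 promoters of 104 lower genes held CACGTG, beside 7.84% for promoters of measured genes. A match is a description of letters and not a site of binding.

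Across the transcriptome, mice 2, 4 and 6 had lower transcripts of fatty acid oxidation and of sinusoidal endothelium than mice 1, 3 and 5. Several members of the clock output list, heat-shock genes among them, were higher, while its clock factors Dbp and Nfil3 were not separated. The lists below give these gene by gene. Of 17409 genes measured on all 6 arrays, 2893 (16.6%) had sets that did not overlap, 1306 (7.5%) higher and 1587 (9.12%) lower in mice 2, 4 and 6. Of these, 399 (2.29%) also differed by at least 1 on the log2 scale, 193 (1.11%) higher and 206 (1.18%) lower. The members nearest this limit were Phgdh at 1.00 and, just outside, Adat2 at 0.99, and on the lower side Pmepa1 just inside and Gpc6 just outside, both at differences that round to the limit itself. For 59 of the 399 genes one set was not well above background on any of its arrays, and no probe of the 399 was saturated in the high-dose mice. Within the shared slide, mouse 6 differed from mouse 5 in the same direction for all 399 genes, which the absence of overlap fixes, and by at least 1 for 260 of them. Over all genes that pair differed by at least 1 for 1399 (8.04%). Choosing the 399 by a set difference of at least 1, which includes both mice, favours a large difference in this pair. The count of 260 is thus a description and no separate support. Without mouse 2, 261 of the 399 kept a difference of at least 1. Leaving out mouse 1, 5 or 4, which eases the condition on overlap, gave 686, 715 and 865 such genes. The balance of directions depended on the background method. With normexp background correction the median of all genes moved to 0.16, and 611 genes met both conditions, 75.6% of them higher against 48.4% in the main reading, with 185 genes shared between both.

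Fatty acid synthesis genes were mixed between the sets, with some regulators and enzymes higher in mice 2, 4 and 6 and several of the main enzymes not separated. Of 21 members measured on all 6 arrays, 15 were higher and 6 lower (51.5% and 48.5% of all genes), with 6 (of which Pnpla3 and Thrsp are 2) higher and 2 lower without overlap, where the background is 7.5% and 9.12%. Without these 2 choosing genes, 13 of 19 were higher and 6 lower, 4 and 2 of them without overlap, with a median difference of 0.24 beside 0.01 for all genes. The direction turned with normexp background, where 7 of these 19 were higher with a median of -0.17 (-0.12 with the choosing genes). Mid1ip1, which activates acetyl-CoA carboxylase and is the paralogue of Thrsp, was 3.34, 3.23 and 2.93 in mice 1, 3 and 5 and 4.53, 4.64 and 4.83 in mice 2, 4 and 6, a difference of 1.50. Aacs, which turns acetoacetate into acetoacetyl-CoA for lipid synthesis, was 3.47, 4.18 and 3.12 against 4.28, 5.41 and 5.42, a difference of 1.45. For both genes the low set lay within the control range, and the Aacs level of mouse 2 (4.28) stood close to that of mouse 3 (4.18).

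Srebf1, the SREBP-1 regulator, was 6.17, 6.21 and 5.74 in mice 1, 3 and 5 and 6.85, 7.05 and 6.99 in mice 2, 4 and 6, a difference of 0.92 between sets that did not overlap. Elovl6, which lengthens palmitate, differed by 0.89 without overlap, with mouse 2 at 4.01 next to mouse 3 at 3.83. Acly, the source of cytosolic acetyl-CoA, was higher by 0.93 with mouse 2 (2.80) inside the low set, while its second probe gave 1.23 with separate sets. Mouse 2 was thus the member of the high set closest to mice 1, 3 and 5 for Elovl6, Aacs and Acly. Fasn, the fatty acid synthase, differed by 0.24 on a probe that was saturated on 10 of the 18 arrays. A second Fasn probe that was not saturated read 1.70, 2.29 and 1.39 against 2.66, 3.54 and 3.52, a difference of 1.44 with separate sets. Scd1, the stearoyl-CoA desaturase, was saturated on 9 arrays and differed by -0.29 with overlap. Acaca (acetyl-CoA carboxylase), Mlxipl and Pklr (liver pyruvate kinase) differed by 0.50, 0.31 and 0.14, each with overlapping sets.

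Glucose entry and the esterification side showed a few separated genes. Pfkfb3, which makes the fructose 2,6-bisphosphate that stimulates glycolysis, was higher by 0.91, and Txnip, a restraint on glucose uptake, lower by 0.90 (a difference of -0.90), both without overlap. Pnpla5, a lipid droplet lipase and the neighbour of Pnpla3 on chromosome 15, was -0.17, -0.36 and -0.33 against -0.06, 0.89 and 1.37, a difference of 1.02. Gpam, the first acyltransferase of triglyceride synthesis, differed by 0.75 with overlap. In contrast, of 24 genes for making triglycerides and coating lipid droplets, 4 were higher and 8 lower without overlap (7.5% and 9.12% of all genes). G0s2, the inhibitor of adipose triglyceride lipase, was 4.86, 4.67 and 4.29 in mice 1, 3 and 5 and 0.74, 3.54 and 3.06 in mice 2, 4 and 6, a difference of -2.16 that was -1.31 without mouse 2. Mogat1 (monoacylglycerol acyltransferase), Fitm1 and the lipid droplet protein Cidec were lower by 1.88, 1.24 and 1.19 on the log2 scale (differences of -1.88, -1.24 and -1.19), each without overlap.

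Cholesterol genes differed little, and their direction depended on the background method. Of 24 members, 20 were higher beside 51.5% of all genes, with 4 higher and 1 lower without overlap (7.5% and 9.12% of all genes). The median of 0.16 was 0.07 without mouse 2 and -0.18 with normexp background. Sqle, the squalene epoxidase, differed by 1.10, with mice 3 and 4 both at 2.20. Mvd, which makes isopentenyl diphosphate, and Insig1, a brake on SREBP processing, differed by 0.90 and 0.84 with overlapping sets.

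Genes of fatty acid oxidation and ketone bodies were lower in mice 2, 4 and 6. Of 27 members on all 6 arrays, 26 were lower and 1 higher, 17 of the lower ones without overlap where the background is 9.12%, and the median difference was -0.54. It was -0.38 without mouse 2 and -0.26 for mouse 6 minus mouse 5. Cyp4a14, a PPARα target that hydroxylates the end of fatty acids, had the largest negative difference of all named genes. Its level was 5.35, 4.20 and 3.39 in mice 1, 3 and 5 and -2.63, -0.17 and -2.19 in mice 2, 4 and 6, a difference of -5.98 or 62.9-fold. Controls spread from -0.03 to 6.01 and low-dose mice from -0.65 to 4.34, so Cyp4a14 also varied widely between mice of those groups, and mice 2, 4 and 6 lay below all controls.

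Acot1, an acyl-CoA thioesterase under PPARα, was 3.44, 2.72 and 3.03 against 0.17, 2.18 and 1.13, a difference of -1.91, with the low set of mice 2, 4 and 6 below all controls (2.61 to 4.55). Its mitochondrial relative Acot2 differed by -1.46, and Vnn1, a pantetheinase induced by PPARα, by -1.62, both without overlap. Acot1 and Acot2 are close paralogues, so a probe may read both. Cpt1a, which admits fatty acids to mitochondria, was 4.65, 4.70 and 4.73 in mice 1, 3 and 5 and 3.77, 4.14 and 3.73 in mice 2, 4 and 6, a difference of -0.81. The Cpt1a sets were separate. Fgf21, a hormone of the fasted liver and a PPARα target, did not follow it, at 1.33, 1.49 and 2.09 against -0.33, 3.52 and 2.32.

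**Figure D2:**
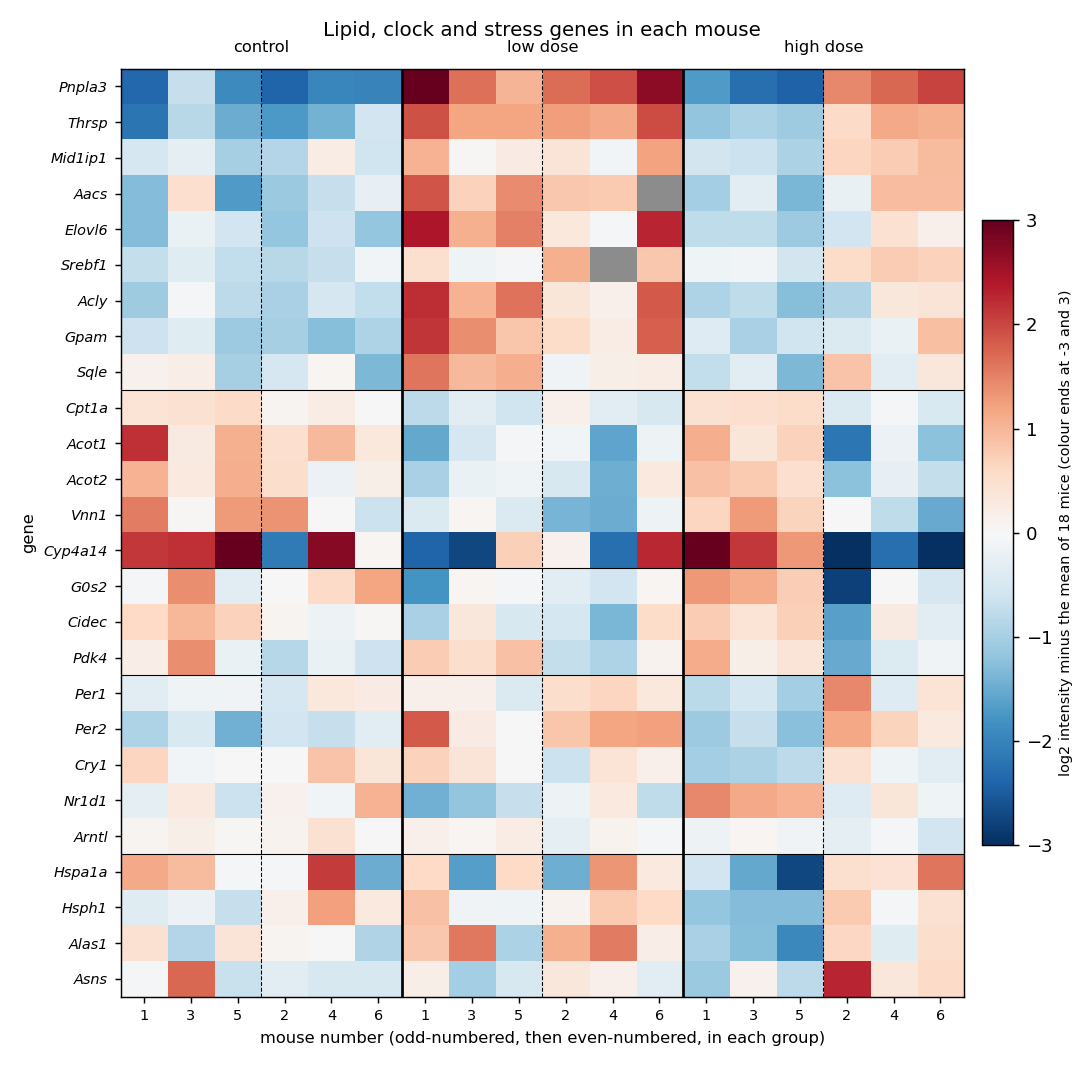
Log2 intensity minus the mean of the 18 mice for lipid, clock and stress genes (rows, in the order lipid synthesis, fatty acid oxidation, lipid droplet and fuel switch, clock, stress) in each mouse (columns, odd-numbered then even-numbered in each group), with blue below and red above the mean, colours ending at -3 and 3, and grey where a spot was dropped. Cyp4a14, Cpt1a and Acot1 are lower in the high-dose mice 2, 4 and 6 than in 1, 3 and 5, with Cpt1a at 3.73 to 4.14 against 4.65 to 4.73, while Srebf1 and Thrsp are higher.

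Genes that mark the fasted state were otherwise mixed. Of 17 measured genes of gluconeogenesis and fasting, 1 was higher and 2 were lower without overlap (7.5% and 9.12% of all genes), which is near that background, and the median was -0.01. Pdk4, which shuts pyruvate oxidation in fasting, was 2.62, 1.68 and 1.91 against 0.02, 1.11 and 1.42, a difference of -1.22 with separate sets. G6pc (glucose 6-phosphatase), Ppargc1a and Igfbp1 differed by 0.21, -0.01 and 0.56 with overlap. Pck1 and Irs2 had no probe that met the brightness condition. Trib3, an inhibitor of AKT induced by stress and fasting, was 2.40, 1.92 and 2.01 against 0.69, 1.39 and 0.44, a difference of -1.27. Asns, the asparagine synthetase of the amino acid response, was higher by 1.65, most in mouse 2 (1.94 against 0.01 and 0.25 in mice 4 and 6).

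In the circadian clock, Per1, Per2 and Cry1 were higher and Nr1d1 lower in mice 2, 4 and 6, while Per3 (0.28), Cry2 (-0.21) and the activators were not separated. Of 13 core clock genes, 6 were higher and 7 lower, 4 and 1 of them without overlap (7.5% and 9.12% of all genes), with a median of -0.15. Per1, induced by light, glucocorticoids and cAMP, was -3.58, -3.32 and -3.79 in mice 1, 3 and 5 and -1.33, -3.16 and -2.37 in mice 2, 4 and 6, a difference of 1.28 that was 0.80 without mouse 2. Cry1 was -3.58, -3.51 and -3.33 against -2.10, -2.68 and -2.90, a difference of 0.92, and mice 1, 3 and 5 lay below all controls (-2.63 to -1.70). A second Cry1 probe gave 1.39. Arntl and Npas2, the activators whose peak lies opposite to that of Per, differed by -0.24 and -0.17 with overlap. Dbp, an output factor of the clock with a large daily swing, differed by -0.37 with overlap, and all 6 high-dose mice (2.06 to 2.82) lay above all controls (0.10 to 2.03). Nfil3, the repressor that binds the same D-boxes, differed by -0.11.

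Of 20 genes of the clock output list, 9 were higher and 1 lower without overlap, beside 7.5% and 9.12% of all genes. The list holds heat-shock genes beside clock factors, and of those factors Dbp and Nfil3 were not separated. Its median was 0.38 and was not computed with normexp background. Heat-shock transcripts, which follow the daily rhythm of body temperature, were among the separated ones. Hspa1a, an inducible HSP70, was 1.43, 0.46 and -0.72 in mice 1, 3 and 5 and 2.47, 2.44 and 3.61 in mice 2, 4 and 6, a difference of 2.45. Its near-identical copy Hspa1b differed by 2.16, and the probes of this pair may read both transcripts. Hsph1 (HSP110) was 1.67, 1.54 and 1.54 against 3.62, 2.78 and 3.29, a difference of 1.65, and mice 1, 3 and 5 lay below all controls (2.15 to 4.06). For Hsph1 the odd-numbered set was the one that stood apart from the controls. Alas1, the first enzyme of haem synthesis, was 2.38, 2.06 and 1.41 against 3.98, 2.99 and 3.88, a difference of 1.67. Tsc22d3, a glucocorticoid-induced leucine zipper gene, differed by 0.67 with mice 3 and 4 both at 2.44. Of 11 glucocorticoid-induced genes, 3 were higher and 1 lower without overlap (7.5% and 9.12% of all genes), and Fkbp5 differed by 0.10 with overlap.

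Genes of the unfolded protein and integrated stress responses were mostly higher, 13 of 14 beside 51.5% of all genes, with 8 higher and 1 lower without overlap (7.5% and 9.12% of all genes) and a median of 0.38. That median turned to -0.05 with normexp background. Manf, a secreted factor of the endoplasmic reticulum, was 3.50, 3.74 and 3.59 against 5.08, 4.55 and 4.87, a difference of 1.23. Chac1, which degrades glutathione, differed by 1.64 without overlap. Of 12 bile acid genes 5 were higher and 7 lower, 0 and 4 of them without overlap (7.5% and 9.12% of all genes). Their median was -0.08, and 0.09 without mouse 2. Cyp8b1, the sterol 12α-hydroxylase that clock factors and SREBP-1 act on, was 2.88, 2.65 and 2.71 against -0.41, 2.60 and 1.75, a difference of -1.44 that shrank to -0.57 without mouse 2. Cyp7a1, the rate-limiting enzyme of bile acid synthesis, ranged from -3.80 to 0.96 in mice 1, 3 and 5 and from -1.23 to 0.76 in mice 2, 4 and 6. Cyp2b10, the drug-metabolism target of the receptor CAR, differed by 0.03 with overlap.

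The genes with the largest differences were partly of other kinds. Ighg, an immunoglobulin heavy chain transcript, differed by 5.04, with mouse 2 at 3.73 and mice 4 and 6 at -3.23 and -3.22, and by 2.72 without mouse 2. Gdpd3, a lysophospholipase D, was not well above background in mice 1, 3 and 5 and at least 11.2-fold higher in mice 2, 4 and 6 as a set, of which mouse 6 (-5.24) stayed near mouse 5 (-5.54). Tff3, a trefoil peptide of secretory epithelia, was 2.06, -1.34 and -0.45 against 2.35, 3.32 and 3.65, a difference of 3.02. Tff3 also spread widely among controls, from -1.43 to 3.14.

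Cish, a feedback inhibitor of growth hormone signalling, was -0.64, -1.13 and 1.16 against 2.29, 2.44 and 1.97, a difference of 2.44 within a control range of -2.46 to 4.41. Slpi, a leukocyte protease inhibitor of the inflamed liver, differed by 2.62 and by 1.27 without mouse 2. Crym (a thyroid hormone binding protein) and Tmprss4 (a membrane protease) differed by 2.84 and 2.41. Bhlha15, a factor of secretory cells, differed by 3.38 on its brightest probe and by 0.27 on a second one. Clec4d and Glp1r were not well above background in mice 1, 3 and 5 and were at least 2.27-fold and at least 2.56-fold higher in the other set.

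Among the lower genes, Serpine2 (a protease inhibitor) differed by -2.73, Fam171b by -2.21, Sparcl1 (a matricellular protein of vessels) by -2.00 and Unc93a by -1.87. Adgrl4, an adhesion receptor of endothelial cells, was -1.27, -0.98 and -1.19 against -3.66, -2.04 and -3.31, a difference of -1.86. At this end of the ranking some signs depended on the background method. The part of dim probes in this was not tested. With normexp background the differences of Serpine2, Tmem163, Il13ra2 and Mpped2 came out positive, at 0.04, 0.61, 0.79 and 0.24.

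Transcripts of liver sinusoidal endothelium were lower in mice 2, 4 and 6. All 15 listed markers were lower, 11 of them without overlap where the background is 9.12%, and the median difference was -0.77, -0.64 without mouse 2 and -0.92 for mouse 6 minus mouse 5. In bulk tissue fewer cells of a type and less RNA per cell cannot be told apart. Stab2, the hyaluronan receptor of these cells, was 2.40, 2.90 and 2.74 in mice 1, 3 and 5 and 1.64, 1.96 and 1.65 in mice 2, 4 and 6, a difference of -0.94. Oit3, a liver endothelial protein, was 1.44, 1.50 and 1.72 against -0.05, 1.08 and 0.40, a difference of -1.08. Tek, the angiopoietin receptor, and Flt4, the VEGF-C receptor, differed by -1.12 and -1.06 without overlap.

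Stellate cell and fibroblast markers pointed the same way, with 12 of 14 lower (48.5% of all genes), 5 of them without overlap (9.12%), and a median of -0.54 that was -0.27 without mouse 2. Lrat, which stores vitamin A in stellate cells, was 0.18, 0.12 and 0.60 against -2.29, -0.14 and -0.70, a difference of -1.35. The collagen-binding protein Lum, the secreted glycoprotein Reln and the lectin Colec11 differed by -0.98, -0.92 and -0.92, all without overlap and each lowest in mouse 2. All 11 pericentral hepatocyte markers were lower (48.5% of all genes), 4 without overlap (9.12%), with a median of -0.37. Tbx3, a Wnt target of the cells around the central vein, was 4.55, 4.13 and 4.09 against 2.99, 2.90 and 3.16, a difference of -1.24, while Lgr5 differed by -1.02 and Glul, the glutamine synthetase of the same cells, by -0.48. For mouse 6 minus mouse 5 the pericentral median was -0.14 with 5 of 11 members higher, so this lean did not show within the shared slide. Of 8 periportal markers 0 were separated in either direction, where 7.5% of all genes were higher and 9.12% lower without overlap. Of 7 erythroid genes 3 were higher and 4 lower (51.5% and 48.5% of all genes), with a median of -0.41 that turned to 0.10 without mouse 2. Among them the haemoglobin transcripts Hba-a1 and Hbb-bt differed by -1.29 and -1.02 without overlap (9.12% of all genes). The red cell anion exchanger Slc4a1 differed by 0.96 with overlap. All 6 adipose tissue genes were lower (48.5% of all genes), 3 without overlap (9.12%), with a median of -0.71. For mouse 6 minus mouse 5 the adipose median was -0.27, with 3 members higher and 3 lower. Fabp4, a fatty acid carrier of adipocytes, capillaries and macrophages, differed by -0.92 without overlap.

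Among the high-dose mice, the macrophage, neutrophil and acute phase lists had their highest level in mouse 2. Of 14 Kupffer cell and macrophage genes 11 were higher (51.5% of all genes). Of these 1 was separated (Timd4, 0.95), where the background is 7.5%. The Kupffer median of 0.28 turned to -0.29 without mouse 2. The 5 measured neutrophil genes had a median of 2.06 and 0.50 without mouse 2. S100a8, a neutrophil calcium-binding protein, was 2.63 in mouse 2 and -4.80 to -2.48 in the other 5, and Mpo, the myeloperoxidase, was 1.78 in mouse 2 and -4.20 to -3.69 in the others. The acute phase median was 0.84 with mouse 2 and 0.05 without it, with Lcn2 (lipocalin 2) at 6.40 in mouse 2 and -3.44 to 0.52 in the others. For mouse 6 minus mouse 5 the acute phase median was 0.71, with 16 members higher and 3 lower. Mouse 2 was also the lowest of the 3 even-numbered mice for G0s2, Cidec, Acot1 and Cyp8b1. Its share in the differences of other genes is given by the values without it.

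**Figure D3:**
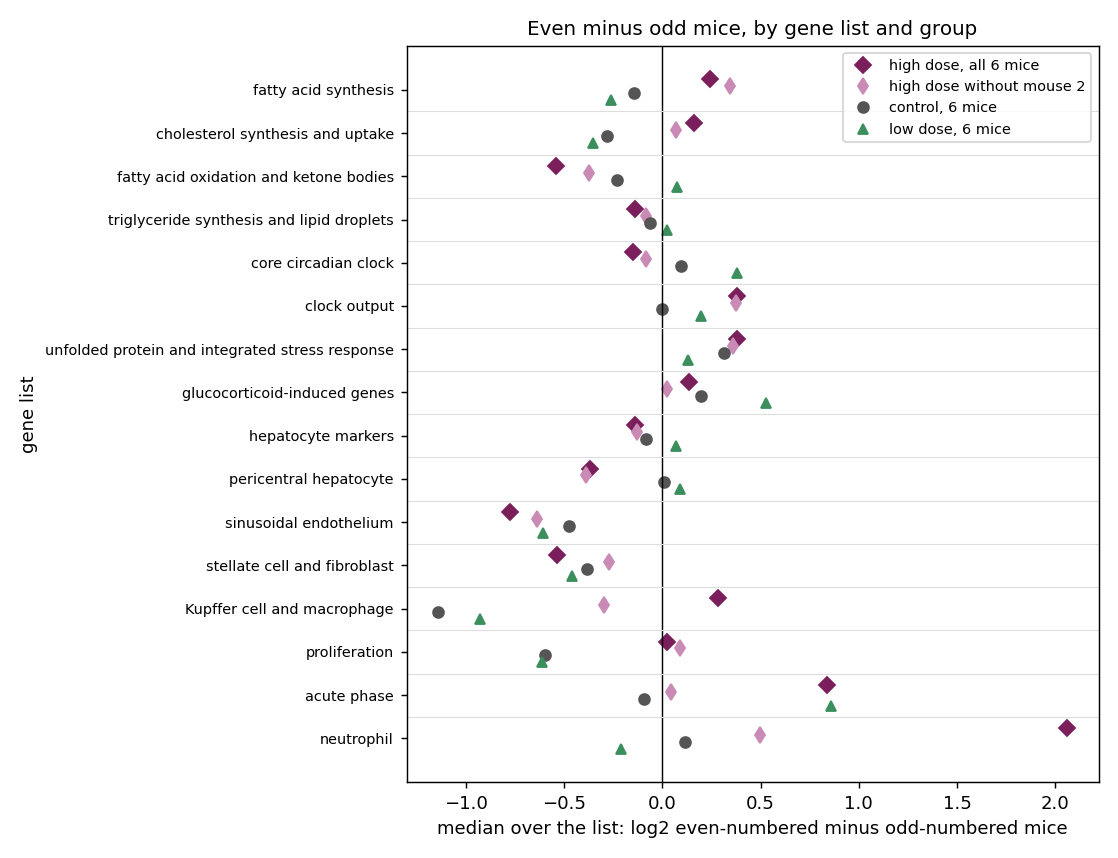
Median over the members of each gene list (y axis) of the log2 difference between even-numbered and odd-numbered mice (x axis), for the high-dose mice with and without mouse 2, the control mice and the low-dose mice, 6 mice a group. Fatty acid oxidation is lower in the high-dose even mice (-0.54), endothelial markers are lower in the even mice of all 3 groups, and the Kupffer list is lower in control (-1.14) and low-dose (-0.93) even mice but not in the high-dose ones.

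The same even and odd numbers in the other groups asked whether anything of this division goes with the numbers themselves. For the 2 choosing genes no such difference passed the test. In the limma fit of the 12 control and low-dose arrays, with Benjamini-Hochberg adjustment over all genes, Pnpla3 differed between even and odd mice by -0.46 ± 0.61 (SE, 3 mice against 3, adjusted p = 0.945) in controls and by 0.03 ± 0.61 (adjusted p = 0.994) at the low dose. Per2 differed by 0.41 ± 0.42 (adjusted p = 0.905) and 0.38 ± 0.42 (adjusted p = 0.818) and Nr1d1 by 0.58 ± 0.37 (adjusted p = 0.749) and 0.90 ± 0.37 (adjusted p = 0.429). The fatty acid synthesis list had medians of -0.15 in controls and -0.26 at the low dose, beside 0.24 in the high-dose mice, and the oxidation list medians of -0.23 and 0.07.

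Among the cell-type lists, endothelial markers were lower in even-numbered mice of the other groups as well, 15 of 15 in controls (median -0.48, where 53.1% of all genes were lower) and 14 of 15 at the low dose (median -0.61, beside 44.9%). Over the 18 mice, the endothelial list level was -0.01 to 0.54 in the 9 odd-numbered mice and -0.77 to -0.11 in the 9 even-numbered ones. Stellate markers gave medians of -0.38 and -0.46, and list levels of 0.14 to 0.43 in odd and -0.66 to 0.11 in even mice. Neither list overlapped between odd and even mice over the series. All 14 Kupffer cell genes were lower in the even mice of both other groups, with medians of -1.14 and -0.93. In the high-dose group their list level was -0.16 to 0.25 in odd and -0.48 to 1.17 in even mice, which overlap. Proliferation genes leaned lower as well, with medians of -0.60 in controls and -0.61 at the low dose (14 and 16 of 16 lower). B cell and MHC class II genes did so with -0.48 and -0.66, 9 of 12 lower in each group. Between the high-dose sets these lists had medians of 0.025 and -0.09. The acute phase list had a median of -0.095 in controls and 0.86 at the low dose, where 1 of 20 members was lower beside 44.9% of all genes.

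**Figure D4:**
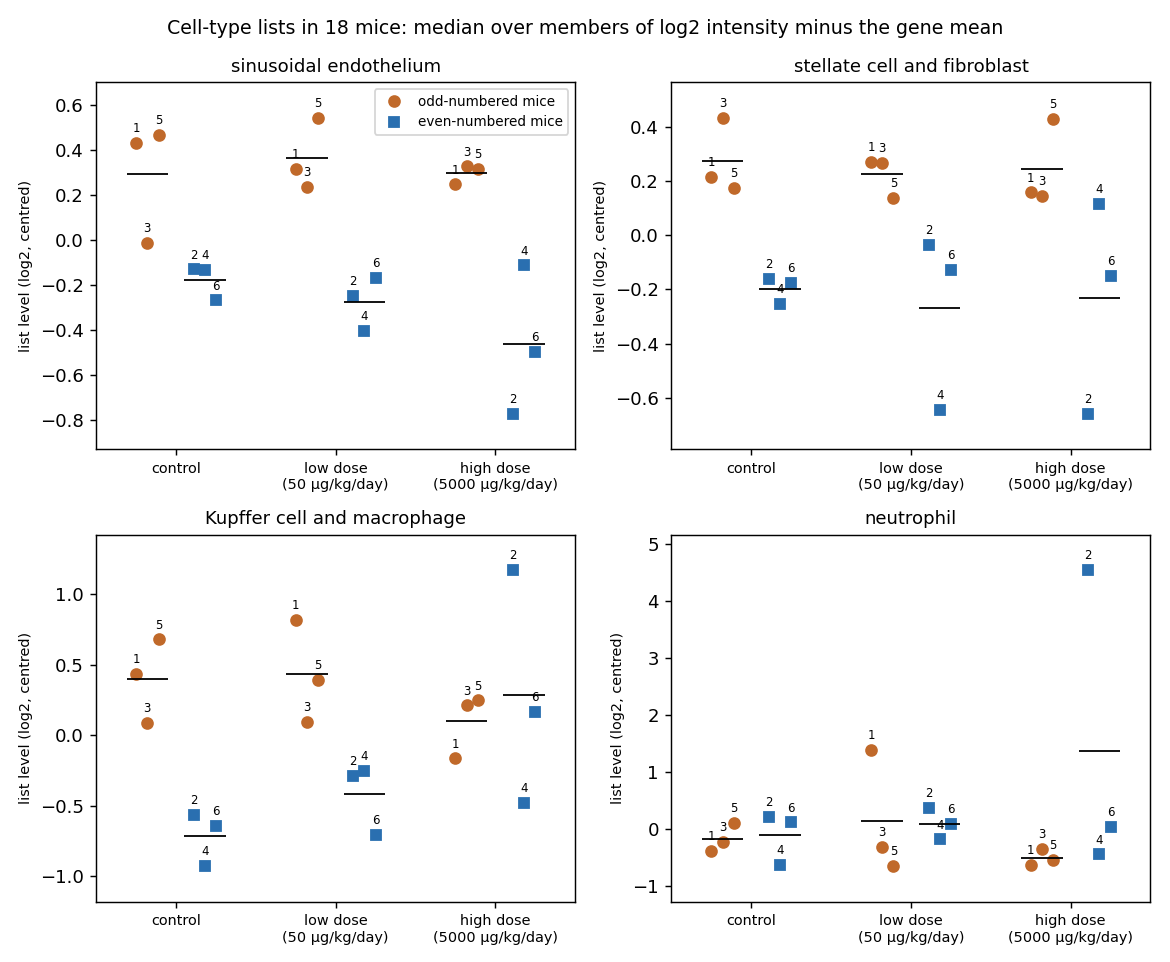
List level (median over the members of log2 intensity minus the mean of the 18 mice, y axis) of 4 cell-type lists in each mouse, by group on the x axis, with odd-numbered mice as circles, even-numbered mice as squares, the mouse number above each point and a bar at the mean of 3 mice. The endothelial and stellate levels of odd and even mice are separate in every group, and the neutrophil level of high-dose mouse 2 is 4.54.

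Single genes passed no test in either group alone. In controls 0 of 17677 genes (0%) were called between even and odd mice at an adjusted p of 0.05, with 1576 (8.92%) at an unadjusted p under 0.05. At the low dose 0 of 17672 (0%) were called and 1876 (10.6%) had such an unadjusted p, and for the difference between both contrasts 0 of 17670 (0%) and 962 (5.44%). The 5 genes with the smallest p in controls, none past the threshold, were Galnt18 (-1.33), Npl, Zmat1, Cyba and Nusap1, all at an adjusted p of 0.133 in limma. Those at the low dose were Saa3 (4.10), Rftn1 (-1.19), Prkch (-1.14), Galnt3 and Bid. Of these 10, Galnt18, Rftn1 and Prkch also had separate sets in the high-dose mice in the same direction, with differences of -1.68, -1.11 and -1.24. Over all genes, 9.12% were lower and 7.5% higher without overlap between the high-dose sets.

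The endothelial, stellate and Kupffer cell lists, among others, pointed the same way in both groups. The control and low-dose mice were therefore also contrasted together, a comparison chosen after the data were seen. Between the 6 even and 6 odd mice of these groups, 157 of 17670 genes (0.889%) were called in limma, 12 (0.0679%) higher and 145 (0.821%) lower in even mice. Kupffer cell genes led them, with 9 of 14 members called lower. Adgre1, a surface receptor that defines tissue macrophages, was lower by 1.74 on the log2 scale (-1.74 ± 0.22, adjusted p = 0.0229), at 1.56 to 2.75 in the 6 odd-numbered mice and -0.11 to 0.72 in the 6 even-numbered mice. The scavenger receptor Marco, the complement receptor Vsig4 and the lectin Clec4f differed by -1.53, -1.24 and -0.71. In the endothelial list 3 of 15 were called, Oit3 (-0.87 ± 0.16, adjusted p = 0.0419), Pecam1 (-0.60) and Stab1 (-0.57), which were also separate and lower in the high-dose even mice (-1.08, -0.81 and -0.59). Other called genes included Osbpl3 (-2.00), Nusap1 (-1.65), Loxl4 (-1.56) and the cell cycle factor Foxm1 (-1.30) on the lower side, and Saa3 (2.33), an acute phase serum amyloid, Dusp3 (0.76) and Etnk2 (0.69) on the higher side. Dusp3, a phosphatase of MAP kinases, was also separate in the high-dose mice, at -2.16, -2.12 and -2.09 against -0.81, -0.76 and -0.73. Of the 145 genes lower in the other groups, 95 were lower in the high-dose even mice (48.5% of all genes) and 50 without overlap (9.12%), with a high-dose median of -0.23.

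That count of 157 rests on the setting, and 0 genes were called with the slide as a block, with the array median as scale, or without control mouse 5, low-dose mouse 1 or low-dose mouse 5. It was 2, 13, 84 and 12 without control mouse 1, 2, 4 or 6, and 97, 277, 3 and 36 without low-dose mouse 2, 3, 4 or 6. The list medians were steadier, -0.55 for endothelium and -1.02 for Kupffer cells with the slide as a block, and the part of slide, array position and mouse number in them was not tested.

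The 399 genes that part the high-dose mice were then read in the mice that did not choose them. The 193 higher ones leaned upwards in low-dose mice compared with controls, 134 of them (69.4%, beside 45.7% of all genes), with 53 (27.5%) at an unadjusted p under 0.05 beside 6.17% of all genes, and 4 called. Pnpla3 and Thrsp, whose levels chose the sets, are 2 of these 4, and without them 132 of 191 (69.1%) were higher, 51 (26.7%) at that p and 2 called, Ccdc69 and Pnpla5. For even minus odd mice of the other groups, 8 of the 193 (4.15%) reached that unadjusted p in the same direction, beside 4.36% of all genes. Of the 206 lower ones, members were lower in both contrasts more often than the background. In even minus odd mice of the other groups 149 (72.3%, beside 47.5%) were lower, 66 (32%, beside 7.74%) at an unadjusted p under 0.05 and 15 called. At the low dose against controls 131 (63.6%, beside 54.3%) were lower, 40 (19.4%, beside 7.39%) at that p and 1 called. Genes are not independent of each other, and these shares are given as counts with no test.

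In distance, the mean of mice 1, 3 and 5 was nearer to the control mean than that of mice 2, 4 and 6 for 63.7% of the 190 higher and 62.1% of the 206 lower genes that were measured on all 18 arrays, beside 54.3% of all genes. The mean of mice 2, 4 and 6 was the nearer one to the low-dose mean for 55.3% and 52.9%, beside 50.5%.

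Against controls, the low-dose mice differed in few genes at this threshold. Of 17670 genes 10 (0.0566%) were called in limma, 7 (0.0396%) higher and 3 (0.017%) lower, with 2396 (13.6%) at an unadjusted p under 0.05. Pnpla3 was higher by 3.97 ± 0.43 (adjusted p = 0.0116) and Thrsp by 2.81 ± 0.29 (adjusted p = 0.0104). Of the other 8, all differed in the same direction between the high-dose sets and 6 did so without overlap, where 51.5% of all genes were higher and 48.5% lower between these sets, 7.5% and 9.12% without overlap. Ccdc69 was higher by 1.46 ± 0.15 (adjusted p = 0.011), and its level in the high-dose mice was -3.25, -2.72 and -1.74 in mice 1, 3 and 5 and -1.47, -0.59 and -1.14 in mice 2, 4 and 6. Rab30, a small GTPase of the Golgi, fell by 1.37 ± 0.14 (adjusted p = 0.0104), and was 0.73, 0.38 and 0.74 against -0.30, -1.11 and -0.01. Pnpla5 (1.82), the acetylcholine receptor subunit Chrna4 (2.44), Gas2l3 (0.99) and Notch1 (-0.74) completed the genes with separate high-dose sets. The exceptions were Reck, a membrane inhibitor of metalloproteases, at 1.42 ± 0.10 for the low dose but 0.04 between the high-dose sets, and Hand2, a stellate cell factor, at -0.91 ± 0.11 but with overlapping high-dose sets.

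All 6 controls lay at slide positions 1 and 4 and 5 of the 6 low-dose mice at positions 2 and 3, so position and dose cannot be told apart here, and with the slide as a block 0 genes were called. The count of 10 was 1 without control mouse 5, 17 without low-dose mouse 5, and 6 without control mouse 4, low-dose mouse 1 or low-dose mouse 4. Fatty acid synthesis had a median of 0.67 for low dose minus control, with 20 of 22 higher (45.7% of all genes). Without Pnpla3 and Thrsp, 18 of 20 were higher. Oxidation had a median of -0.34 with 29 of 30 lower (54.3%), beside a median of -0.02 for all genes. The 55 genes saturated on all 6 high-dose arrays had a median of -0.365 in this contrast. Hepatocyte markers had one of -0.22, with 4 higher and 13 lower. The part of brightness in the oxidation median was not tested.

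Inside the control and low-dose groups, no gene passed the test for following the Pnpla3 and Thrsp level from mouse to mouse. With the mean of both levels as a covariate beside group, 0 of 17679 genes (0%) were called in limma and 1044 (5.91%) had an unadjusted p under 0.05. The smallest p belonged to Id1, a helix-loop-helix inhibitor, at 0.87 ± 0.12 per log2 unit (adjusted p = 0.367), with Thbs3, Pnpla5 and Yeats4 next, none past the threshold. Id1 does not follow this order in the high-dose mice, at 1.34, 1.02 and 1.74 in mice 1, 3 and 5 and -0.19, 0.00 and 1.30 in mice 2, 4 and 6.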

How the data were processed

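Liver RNA of 18 mice was measured on 1-colour Cy3 arrays, 1 per mouse. The deposited scanner files give the intensity of each spot, from which Agilent Feature Extraction 9.5 had subtracted the background, a version named in the submitters' processing notes, not normalised between arrays. A deposited table of log2 values covers 22514 probes and was used as an alternative, with like medians on all arrays and an unstated scaling. The submitters' notes also name limma without steps.

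Intensities were put on a log2 scale minus the 75th percentile of each array. Control and outlier spots were dropped, repeated spots were averaged, and 25427 of 41174 probes well above background on at least 6 arrays were kept. Each of 17682 genes was read from its brightest kept probe. Names were updated through RefSeq accessions (GRCm38.p6), which matched 23477 probes and changed 4882 symbols. Where a probe was not well above background in a set, "at least" marks a fold against the lowest signal well above background, or the signal of the probe itself if higher, on each array.

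The high-dose sets were compared by difference and overlap, with no test. The 12 control and low-dose arrays were fitted with limma 3.58.1 in R 4.3.3 (lmFit and eBayes, 4 cells of group by even or odd number, 8 residual degrees of freedom, Benjamini-Hochberg over all genes, threshold 0.05, 2-sided). High-dose arrays were left out of that fit. Precision is limited by how many arrays there are. The members and all 29 gene lists were chosen with earlier results of these data known. Genes were named by a rule: the 15 largest differences in each direction without overlap, up to 4 members of each list with the largest differences, up to 10 called genes in each direction or else the 5 with the smallest p, and 36 fixed genes. Cps1, Clec4f, Pecam1, Stab1, Alb, Phgdh, Adat2, Pmepa1, Per3, Cry2 and Gpc6 fall outside it and were chosen after their values were seen, as was the contrast of control and low-dose mice together. Some genes that the rule picks are not reported here. Fits were tested on simulated data. Alternatives were other scalings, background methods, probe rules and filters, slide or replicate blocks, array weights, and leaving out each mouse. Whether mouse numbers pair the groups was checked by correlating same-number deviations from group means, which ran from -0.31 to 0.35, so the numbers were not treated as pairs.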

Additional observations from a re-analysis of the deposited data

Results flagged for a closer look

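In 432 groups of 6 values (the genes and lists named above, in each dose group), 23 held a mouse whose gap to its neighbour exceeded 0.625 of the range of the group, which is Dixon's 95% limit for 6 values. Chance flags about 1 in 20 groups, and these make up 5.32%, which is close to that share. High-dose mouse 2 holds 9 of them: Mpo (1.78), S100a8 (2.63), the neutrophil list level (4.54), Clec4f (5.06), Cyba (0.02), Ighg (3.73), Igfbp1 (5.72), Cyp8b1 (-0.41) and Scd1 (7.11). In the controls mouse 3 stood apart for Pnpla3 (1.72) and Asns (1.40), mouse 4 for Arntl (2.20), Chac1 (-1.56), Cyp8b1 (3.35) and Gdpd3 (1.74), and mouse 6 for Dbp (2.03). At the low dose mouse 1 stood apart for Chrna4 (2.22), G0s2 (1.76) and the fatty acid oxidation level (-0.35), mouse 2 for Crym (1.54) and Npas2 (-4.50), and mouse 4 for Reln (1.20) and the core clock level (0.42).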

How the results depend on the processing

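Among the high-dose mice, the number of genes apart by at least 1 was 399, against 611 with normexp background, 128 in the deposited value table, which holds fewer genes and a narrower scale, 259 with probes well above background on all arrays, 1359 at a difference of 0.5, 2893 with no minimum and 1399 within the shared slide, and 407 to 865 without 1 mouse. With normexp, Serpine2 (0.04), Tmem163 (0.61), Il13ra2 (0.79), Mpped2 (0.24), the medians of the stress response (-0.05), fatty acid synthesis (-0.12) and cholesterol (-0.18) lists and, for low dose minus control, Gas2l3 (-0.13) changed sign, as did 4 genes that the naming rule picks but the text does not name. The marker differences kept their sign in every setting tried, apart from a second Per2 probe read alone. Pnpla3 stood at 3.19 to 4.45, Thrsp at 1.53 to 2.18 and Per2 at 0.66 to 1.93. Nr1d1 stood at -1.46 to -0.83 and Cyp4a14 at -6.72 to -4.78. Where every probe was read alone, these ranges hold 1 probe per gene. The second Per2 probe gave -0.41 with overlapping sets, and other Nr1d1 probes gave -0.63 and -0.61. The medians of fatty acid oxidation (-0.93 to -0.38) and endothelium (-0.93 to -0.63) also kept their sign. These ranges leave out mouse 6 minus mouse 5, where the medians were -0.26 and -0.92.

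Genes called between even and odd control mice numbered 0, and 1 with the mean of the probes or every probe alone (0 to 2 without 1 mouse). At the low dose they numbered 0, and 1 with the array median, normexp, the deposited table or all 18 arrays (0 to 2 without 1 mouse). For low dose minus control the count of 10 was 17 with quantile normalisation, 4 with normexp, 23 in the deposited table, 31 with the mean of the probes, 48 with every probe, 120 on bright probes, 0 with the slide block, 152 with trend and robust moderation, 30 with array weights and 1 to 17 without 1 mouse. The even-odd count of 157 over both groups was 0 with the array median, normexp or the slide block, 61 in the deposited table, 48 without the filter, 284 on bright probes, 313 with array weights and 0 to 277 without 1 mouse. With mouse number as a replicate block it was 283, though the numbers share no stated source, and the block changed no other count by over 1.5 times. The association test called 0 genes in all 28 alternatives. The cause of each shift was not tested. Probes near background limit the low end of every ranking, and saturated ones such as Scd1 the high end.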
